A study of Mus musculus with 12 samples.

Results

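The genes described here act in the passage from G1 into S phase and in copying DNA, and the 42 genes on the list run from origin licensing through the replicative helicase, the polymerases and nucleotide supply to the S-phase cyclins. A listed gene was measured where the array table held a transcript cluster, a set of probes read as 1 value, with that gene as its only symbol. This gave 45 clusters for 40 of the 42 genes, out of 14611 genes tested in all. Rfc4 shared its only cluster with another gene, as did Ccne2, so neither was measured. Where a gene had more than 1 cluster, its brightest cluster on average stood for it. All 40 genes lay above the level required for testing, the 40th percentile of all clusters (log2 2.01). The genes were grouped by role into licensing (10 genes measured), helicase activation (4), polymerases and primase (6), sliding clamp and clamp loader (4), single-strand binding and lagging-strand processing (4), nucleotide supply (5), G1/S drivers (3), and chromatin assembly and histone supply (4).

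All samples were RAW 264.7 cells, which are mouse monocyte/macrophages that grow attached and were transformed with Abelson murine leukemia virus. Cells grown to confluency were collected 48 h after transfection with pre-miR-223, an oligonucleotide that adds miR-223, with anti-miR-223, an inhibitor of it, or with a scramble control sequence, on 4 arrays per group and 12 in all. The arrays are titled as biological replicates, but nothing states that they came from separate cultures or days, so p-values measure the spread between these arrays, which may be partly technical. No group was left untransfected, and mature miR-223 is not measured by these clusters, so delivery of either oligonucleotide was not checked.

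Before S phase, the origin recognition complex with Cdc6 and Cdt1 loads a ring of Mcm proteins onto DNA, and Cdc45 and the GINS complex turn that ring into an active helicase. Cyclin E with Cdk2 drives this step, and E2F transcription factors switch on many of the genes involved. Transcripts of these genes are therefore abundant in proliferating cells and scarce in resting ones. How far the cells of these samples were proliferating was not measured. The microRNA miR-223 is abundant in myeloid cells, where the human E2F1 transcript is among its reported targets. In a bulk RNA sample, fewer cells in S phase and less transcript per cell cannot be told apart.

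Both mature strands of the hairpin are shown with their seeds, because the labels do not say which strand the 2 oligonucleotides supply or block. The strands are credited to RefSeq (GRCm38.p6, plus strand), where miR-223-3p lies at chrX:96242884-96242905 and miR-223-5p at chrX:96242842-96242864. The seeds, bases 2 to 8, are in capitals and differ between the strands.
miR-223-3p: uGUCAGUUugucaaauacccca
miR-223-5p: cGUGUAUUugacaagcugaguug
The labels do not give the sequences of the transfected oligonucleotides, and target sites of these seeds in the replication transcripts were not analysed here.

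Promoters of replication genes are known for E2F sites, and 4 stretches are shown to set genes with and without such letters side by side. Promoter windows from RefSeq (GRCm38.p6), 250 bases before to 50 after each gene's start, were found for 35 of the 42 genes. They were searched on both strands for TTTCCCGC, TTTCGCGC, TTTGCCGC and TTTGGCGC. At least 1 of the 4 words stood in a window of 14 of the 35 genes (40%), against 704 of 27025 genes with a window in the same table (2.60%). The word CCAAT, bound by NF-Y, stood in 22 of the 35 (62.9%), against 41.1% of all genes with a window. Matches are in capitals, and overlapping matches run together. Mcm5 (chr8:75109329-75109408, plus strand) has 2 overlapping matches. Mcm6 (chr1:128359741-128359830, minus strand) has 3, the first and second overlapping. Cdk2 (chr10:128705152-128705231, minus strand) has 1, and Tk1 (chr11:117826115-117826194, minus strand) has none in its window. All 4 stretches lie before the annotated start.
Mcm5: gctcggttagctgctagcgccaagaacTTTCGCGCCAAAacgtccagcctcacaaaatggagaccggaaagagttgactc
Mcm6: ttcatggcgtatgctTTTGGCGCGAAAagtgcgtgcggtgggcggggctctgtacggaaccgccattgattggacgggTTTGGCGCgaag
Cdk2: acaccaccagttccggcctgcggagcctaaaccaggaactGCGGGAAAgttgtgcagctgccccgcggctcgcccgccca
Tk1: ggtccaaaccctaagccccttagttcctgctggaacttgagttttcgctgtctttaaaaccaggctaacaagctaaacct
A match describes letters only, and the absence of one says nothing about binding.

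The replication genes had 12-array means above the lower limit of the test, between log2 3.14 for Orc1 and 9.66 for Pcna. Signals of different clusters do not compare as amounts of RNA. The values are the authors' normalised signals on a scale taken as log2, so a difference of 1 is 2-fold. The label of the cells was checked against 6 lists of markers. The 9 macrophage markers with a cluster averaged between 5.96 and 11.19, with Lyz2, macrophage lysozyme, highest. Markers of fibroblasts, epithelium, lymphoid cells, neutrophils and dendritic cells averaged at most 3.52, a value above that of Orc1. Of those with a cluster, 3 of 6 fibroblast, 3 of 5 epithelium, 0 of 4 lymphoid, 1 of 5 neutrophil and 2 of 3 dendritic cell markers lay above the level required.

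Before any comparison, the 12 arrays differed in how high the 40 genes stood as a whole. The median deviation of the 40 genes from their 12-array means was -0.12, 0.10, -0.15 and -0.16 in pre-miR-223 replicates 1 to 4, -0.09, -0.14, 0.05 and 0.20 in anti-miR-223 replicates 1 to 4, and 0.11, 0.24, -0.02 and -0.0009 in scramble replicates 1 to 4. Thus 1 pre-miR-223 array and 2 anti-miR-223 arrays stood above zero, and scramble replicate 2 stood highest, with 39 of 40 genes above their means. Over arrays the median averaged -0.08 ± 0.12 with pre-miR-223, 0.0038 ± 0.15 with anti-miR-223 and 0.08 ± 0.12 with scramble (SD, n = 4 each), so the 3 groups overlapped. The median over all 14611 genes had the same sign in 12 of 12 arrays and lay closer to zero in each except scramble replicate 4, between -0.08 in pre-miR-223 replicate 4 and 0.08 in anti-miR-223 replicate 4. The part that this general difference between arrays has in the results below was not tested.

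**Figure D1:**
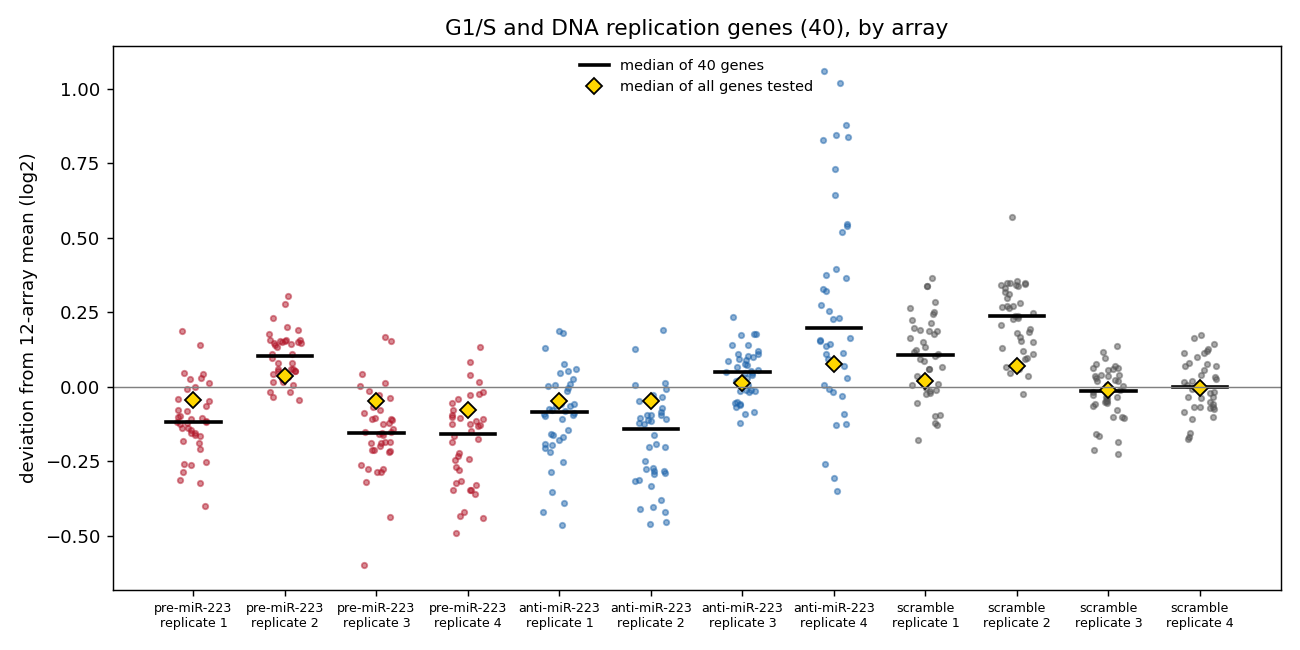
Deviation of each of the 40 genes (points) from its mean over the 12 arrays, in log2, by array; bars mark the median of the 40 genes and diamonds the median of all 14611 genes tested. The bar lies farther from zero than the diamond on most arrays, scramble replicate 2 stands at 0.24, and the points of anti-miR-223 replicate 4 spread from -0.35 to 1.06.

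Anti-miR-223 replicate 4 was unlike the rest. More than 2-fold deviations from the mean were found there for 629 genes (4.30%), and for no more than 37 on each of the other arrays. Among the replication genes it ranged from -0.35 for Dut, a dUTP-removing enzyme, to 1.06 for Chaf1b, a histone chaperone subunit. The median SD of the 40 genes within a group was 0.14 with pre-miR-223, 0.22 with anti-miR-223 and 0.13 with scramble, and it was 0.12 with anti-miR-223 without this array. Most results that rest on it are given with and without it, but those of the genes' dimmer clusters, described below, are given with all arrays only.

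Cells given pre-miR-223 were set against scramble to ask whether added miR-223 goes with a change in the replication genes. The genes were slightly lower with pre-miR-223: the difference was below zero for 37 of 40 and its median was -0.16 on the log2 scale. Orc1 (0.07), Pola1 (0.14) and Lig1 (0.01) were the exceptions. No single gene passed the test. By limma with Benjamini-Hochberg adjustment over all genes, 0 of 14611 genes (0.00%) were called, the lowest adjusted p was 0.921, and an ordinary linear model called 0 as well. At an unadjusted p under 0.05, limma gave 711 genes and the ordinary model 706. Of the 40 replication genes 5 were among limma's 711, all lower (Tk1, Gins2, Dut, Rfc2 and Mcm5), against 3.85% of all genes that were lower at that level, and the ordinary model gave 6. By the brightest clusters, the intervals excluded a 2-fold difference for 40 of 40 genes, against 14390 of all 14611. They excluded a 1.5-fold difference for 28 of 40, against 12103 of all 14611. The intervals of the dimmer clusters of Rrm2 and Rpa1, given below, did not exclude a 2-fold rise. Anti-miR-223 replicate 4 enters these intervals and p-values through the spread that the groups share. Without it limma again called 0 genes, with a lowest adjusted p of 0.521. Then 7 of the 40 were at an unadjusted p under 0.05, with Pola2 and Chaf1b added. Over all genes 1371 (9.38%) were at that level, 1117 of them lower. A 1.5-fold difference was then excluded for 36 of 40, against 13275 of all 14611.

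Lower values were not particular to replication. Of all genes tested, 65.2% were lower with pre-miR-223 and the median was -0.05, and among the 4919 genes with a mean log2 above 5 these were 78.5% and -0.11. The 9 macrophage markers had a median of -0.20, with 7 lower, among them Cd68, a lysosomal glycoprotein, at -0.34 (95% CI -0.63 to -0.05). Their summed level ran from 75.59 to 78.51 with pre-miR-223, from 75.79 to 81.62 with anti-miR-223 and from 77.06 to 79.29 with scramble, and its part in the result was not tested. Scaling moved the shift: after cyclic loess normalisation, which evens out differences that depend on signal level, the median of the 40 genes was -0.05 with 25 lower and 15 higher, and that of the brighter genes was 0.0008. Quantile normalisation gave -0.09 with 33 lower, and centring each array on its median gave -0.18 with 38 lower. By role, cyclic loess left 4 of 4 helicase activation genes lower (median -0.17), 4 of 5 in nucleotide supply (-0.13), 3 of 3 G1/S drivers (-0.10), 2 of 4 of the clamp and its loader (-0.05), 6 of 10 in licensing (-0.04), 3 of 6 polymerase and primase genes (-0.02), 1 of 4 in chromatin assembly (0.01) and 2 of 4 in single-strand binding and lagging strand (0.04). The macrophage markers were then at -0.09 with 5 of 9 lower. Without single arrays the median ran from -0.20, without pre-miR-223 replicate 2, to -0.11, without scramble replicate 2. The count of 5 genes at an unadjusted p under 0.05 became 12 without pre-miR-223 replicate 2, and 3 when scramble replicate 2 or either of pre-miR-223 replicates 3 and 4 was left out. Over all genes the count moved the same way, being 711 (4.87%) with all arrays and 1510 (10.3%) without pre-miR-223 replicate 2. Leaving out pre-miR-223 replicate 3 gave 455 genes (3.11%), replicate 4 of that group 314 (2.15%) and scramble replicate 2 385 (2.64%).

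**Figure D2:**
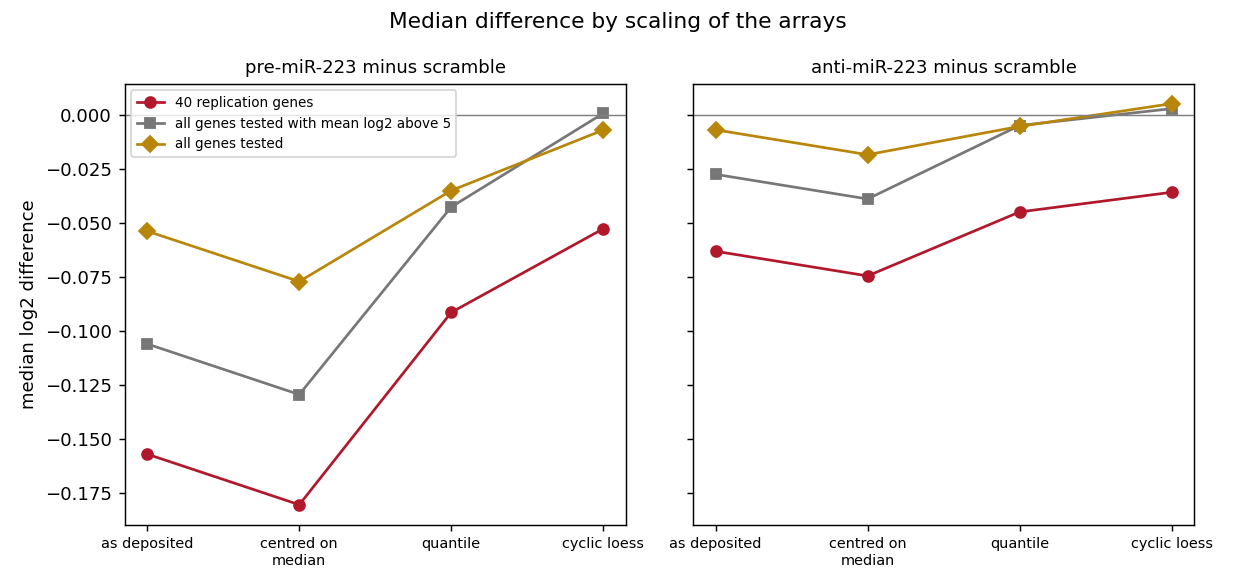
Median log2 difference of the 40 replication genes (circles), of all 4919 genes with a mean log2 above 5 (squares) and of all 14611 genes tested (diamonds) under 4 scalings of the arrays, with pre-miR-223 minus scramble on the left and anti-miR-223 minus scramble on the right; lines join the points of one set and have no other meaning. The replication genes stay below zero and below the other sets under each scaling, and their median for pre-miR-223 shrinks from -0.16 as deposited to -0.05 after cyclic loess.

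The licensing genes had a median difference of -0.15 with pre-miR-223, with 9 of 10 lower. Mcm5, a subunit of the ring-shaped helicase, was at 7.65, 7.83, 7.67 and 7.34 with pre-miR-223, at 7.71, 7.58, 7.92 and 7.91 with anti-miR-223, and at 8.0, 8.12, 7.80 and 7.79 with scramble. Pre-miR-223 replicate 4 was the lowest of the 12 arrays, and pre-miR-223 replicate 2 lay above scramble replicates 3 and 4, so the groups overlapped. The difference was -0.30 (95% CI -0.58 to -0.03), unadjusted p = 0.0315 and adjusted p = 0.921 by limma. Orc1, the largest subunit of the origin recognition complex and the dimmest of the 40 genes, was at 3.18, 3.28, 3.03 and 3.22 with pre-miR-223, at 2.67, 3.03, 3.25 and 3.53 with anti-miR-223, and at 3.26, 3.20, 2.95 and 3.04 with scramble. Its 3 groups overlapped throughout, and its difference with pre-miR-223 was 0.07 (-0.27 to 0.40). Cdt1, which brings the Mcm ring to origins, differed by -0.28 (-0.59 to 0.02), with group means of 6.62 ± 0.25 with pre-miR-223, 6.76 ± 0.19 with anti-miR-223 and 6.90 ± 0.17 with scramble (SD, n = 4 each). Cdc6, the loading ATPase, differed by -0.16, and Orc6, the smallest origin subunit, by -0.10. The other helicase subunits ranged from -0.21 for Mcm2 to -0.08 for Mcm6, with Mcm3 at -0.15, Mcm7 at -0.15 and Mcm4 at -0.11.

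The 4 helicase activation genes were all lower with pre-miR-223, with a median of -0.26, the lowest of the 8 role groups as deposited and under quantile normalisation and cyclic loess. Gins2, a subunit of the GINS complex, was at 5.54, 5.92, 5.71 and 5.42 with pre-miR-223, at 5.92, 5.85, 5.98 and 5.97 with anti-miR-223, and at 6.11, 6.07, 5.92 and 5.92 with scramble. Pre-miR-223 replicates 1, 3 and 4 lay below every other array, while replicate 2 lay just above scramble replicates 3 and 4. Its difference was -0.36 (95% CI -0.60 to -0.11), a ratio of 0.781, with an unadjusted p of 0.00694 and an adjusted p of 0.921 by limma. Gins1, its partner in that complex, was at 5.21, 5.49, 4.72 and 4.97 with pre-miR-223, at 5.16, 5.21, 5.37 and 6.05 with anti-miR-223, and at 5.43, 5.89, 5.16 and 5.16 with scramble. Its highest array was anti-miR-223 replicate 4 and its lowest pre-miR-223 replicate 3, and its SD within groups, 0.33 for pre-miR-223 and 0.34 for scramble, was the widest of the 40 genes in both. The difference of Gins1 was -0.31 (-0.79 to 0.16). Cdc45, the third component of the active helicase, differed by -0.21 (-0.59 to 0.17), and Mcm10, which helps to start unwinding, by -0.19 (-0.58 to 0.20).

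Polymerase and primase genes had a median difference of -0.12 with pre-miR-223, with 5 of 6 lower. Pola2, the accessory subunit of the initiating polymerase, was at 6.47, 6.84, 6.53 and 6.40 with pre-miR-223, at 6.74, 6.41, 6.81 and 7.06 with anti-miR-223, and at 7.07, 7.0, 6.63 and 6.81 with scramble. The pre-miR-223 arrays other than replicate 2 lay below all scramble arrays, and the difference was -0.32 (95% CI -0.64 to 0.0017). Without anti-miR-223 replicate 4 that interval was -0.59 to -0.04. The catalytic subunit of the same enzyme, Pola1, differed the other way, by 0.14 (-0.07 to 0.36), with 6.18 ± 0.09 with pre-miR-223, 6.06 ± 0.15 with anti-miR-223 and 6.04 ± 0.08 with scramble (SD, n = 4 each). Pold1, the catalytic subunit of the lagging-strand polymerase, was at 5.69, 5.76, 5.46 and 5.69 with pre-miR-223, at 5.72, 5.24, 5.70 and 5.56 with anti-miR-223, and at 5.76, 5.89, 5.67 and 5.65 with scramble. The lowest of its 12 arrays was anti-miR-223 replicate 2, and the pre-miR-223 and scramble arrays overlapped, with a difference of -0.09 (-0.35 to 0.17). Pole, the catalytic subunit of the leading-strand polymerase, was at 5.18, 5.25, 4.94 and 4.95 with pre-miR-223, at 5.0, 4.97, 5.40 and 6.10 with anti-miR-223, and at 5.13, 5.39, 5.17 and 5.20 with scramble. Anti-miR-223 replicate 4 stood far above the other 11 arrays, and the difference with pre-miR-223 was -0.14 (-0.57 to 0.29). The primase subunits Prim1 and Prim2, which lay down RNA primers, differed by -0.07 and -0.23.

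All 4 genes of the clamp and its loader were lower with pre-miR-223, with a median of -0.14. Rfc2, a subunit of the loader, was at 5.76, 6.10, 5.67 and 5.67 with pre-miR-223, at 5.94, 5.61, 6.05 and 6.10 with anti-miR-223, and at 6.11, 6.22, 6.06 and 6.07 with scramble. Pre-miR-223 replicates 1, 3 and 4 lay below all scramble arrays and replicate 2 among them, and the scramble arrays were the tightest of the 3 groups. The difference was -0.32 (95% CI -0.59 to -0.04), with an unadjusted p of 0.0272 and an adjusted p of 0.921 by limma. Pcna, the sliding clamp that tethers the polymerases, was the brightest of the 40 genes, at 9.59, 9.82, 9.60 and 9.53 with pre-miR-223, at 9.60, 9.54, 9.75 and 9.65 with anti-miR-223, and at 9.54, 9.79, 9.80 and 9.74 with scramble. The highest array was pre-miR-223 replicate 2 and scramble replicate 1 was among the lowest, so the groups overlapped, with a difference of -0.09 (-0.30 to 0.13). That sign turned to 0.03 after cyclic loess and to 0.02 after quantile normalisation. The loader subunits Rfc3 and Rfc5 differed by -0.19 and -0.10.

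Single-strand binding and lagging-strand genes had a median of -0.06 with 3 of 4 lower with pre-miR-223, which turned to 0.0041 after quantile normalisation and 0.04 after cyclic loess, with 2 of 4 lower in both. Rpa2, a subunit of the single-strand binding complex, was at 5.66, 5.87, 5.66 and 5.59 with pre-miR-223, at 5.87, 5.70, 5.76 and 6.09 with anti-miR-223, and at 5.86, 6.16, 5.88 and 5.75 with scramble. Scramble replicate 2 and anti-miR-223 replicate 4 were its highest arrays, and the groups overlapped, with a difference of -0.22 (95% CI -0.48 to 0.04). Lig1, the ligase that joins Okazaki fragments, differed by 0.01 (-0.22 to 0.24). Rpa1, the large subunit of the same complex, and Fen1, the flap nuclease that trims Okazaki fragments, differed by -0.02 and -0.10 in their brighter clusters, and their dimmer clusters are described below.

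Nucleotide supply held 2 of the 5 genes at an unadjusted p under 0.05, and its median was -0.24 with 5 of 5 lower. Tk1, the cytosolic thymidine kinase, was at 6.60, 6.90, 6.65 and 6.69 with pre-miR-223, at 6.84, 6.75, 6.92 and 7.17 with anti-miR-223, and at 7.28, 7.26, 6.98 and 6.94 with scramble. Every pre-miR-223 array lay below every scramble array, and the nearest were pre-miR-223 replicate 2 at 6.90 and scramble replicate 4 at 6.94. As deposited, it was the only one of the 40 genes with lower, non-overlapping groups, against 2.20% of all genes tested. Quantile normalisation gave 4 of 40 such genes, against 349 of all 14611, and cyclic loess 4 of 40, against 255. Centring each array on its median gave 1 of 40, against 295. The difference of Tk1 was -0.40 (95% CI -0.66 to -0.14), a ratio of 0.756, with an unadjusted p of 0.00528 and an adjusted p of 0.921 by limma. It ran from -0.46 to -0.35 with single arrays left out. Dut, which clears dUTP, was at 5.41, 5.85, 5.42 and 5.57 with pre-miR-223, at 5.74, 5.62, 5.79 and 5.34 with anti-miR-223, and at 5.98, 5.96, 5.79 and 5.87 with scramble. Pre-miR-223 replicate 2 lay within the scramble arrays and the other 3 below them, with a difference of -0.34 (-0.61 to -0.07) and an unadjusted p of 0.0181. Rrm2, the small subunit of ribonucleotide reductase, differed by -0.24 (-0.53 to 0.05) in its brighter cluster. Its large subunit Rrm1 differed by -0.15, and Tyms, thymidylate synthase, by -0.09.

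The 3 G1/S drivers measured were lower with pre-miR-223, with a median of -0.19. E2f2, an activating E2F factor, was at 4.17, 4.34, 4.17 and 4.22 with pre-miR-223, at 4.46, 4.30, 4.26 and 4.36 with anti-miR-223, and at 4.57, 4.42, 4.33 and 4.32 with scramble. Pre-miR-223 replicate 2 overlapped scramble replicates 3 and 4, and pre-miR-223 replicates 1, 3 and 4 lay below all scramble arrays, with a difference of -0.19 (95% CI -0.39 to 0.02). Ccne1, cyclin E1, differed by -0.18 (-0.49 to 0.12), and its kinase Cdk2 by -0.22 (-0.70 to 0.26). E2f1, a reported miR-223 target outside the list, had means of 5.13 ± 0.05 with pre-miR-223, 5.16 ± 0.10 with anti-miR-223 and 5.21 ± 0.12 with scramble (SD, n = 4 each), and differed by -0.08 (-0.28 to 0.13), which turned to 0.02 after cyclic loess. Fbxw7, another reported target and the ubiquitin ligase adaptor that removes cyclin E, had means of 4.26 ± 0.10 with pre-miR-223, 4.17 ± 0.23 with anti-miR-223 and 4.16 ± 0.12 with scramble (SD, n = 4 each) and differed by 0.10 (-0.16 to 0.36).

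Chromatin assembly and histone supply genes had a median of -0.10, with 4 of 4 lower with pre-miR-223, which turned to 0.01 with 1 of 4 lower after cyclic loess. Chaf1b, a subunit of the chaperone that loads histones behind the fork, was at 4.77, 5.32, 4.73 and 5.02 with pre-miR-223, at 5.01, 4.88, 5.05 and 6.23 with anti-miR-223, and at 5.26, 5.52, 5.14 and 5.11 with scramble. The arrays with pre-miR-223 and scramble overlapped, with a difference of -0.30 (95% CI -0.82 to 0.23). Without anti-miR-223 replicate 4 that interval was -0.58 to -0.01. Slbp, which binds the end of histone messages, was at 7.31, 7.49, 7.33 and 7.43 with pre-miR-223, at 7.36, 7.32, 7.46 and 7.29 with anti-miR-223, and at 7.48, 7.65, 7.49 and 7.38 with scramble. Scramble replicate 4 lay below pre-miR-223 replicates 2 and 4, so the groups overlapped. The difference was -0.11 (-0.31 to 0.09), and it turned to 0.01 after cyclic loess. The large chaperone subunit Chaf1a differed by -0.02 and Uhrf1, which guides maintenance of DNA methylation, by -0.10.

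**Figure D3:**
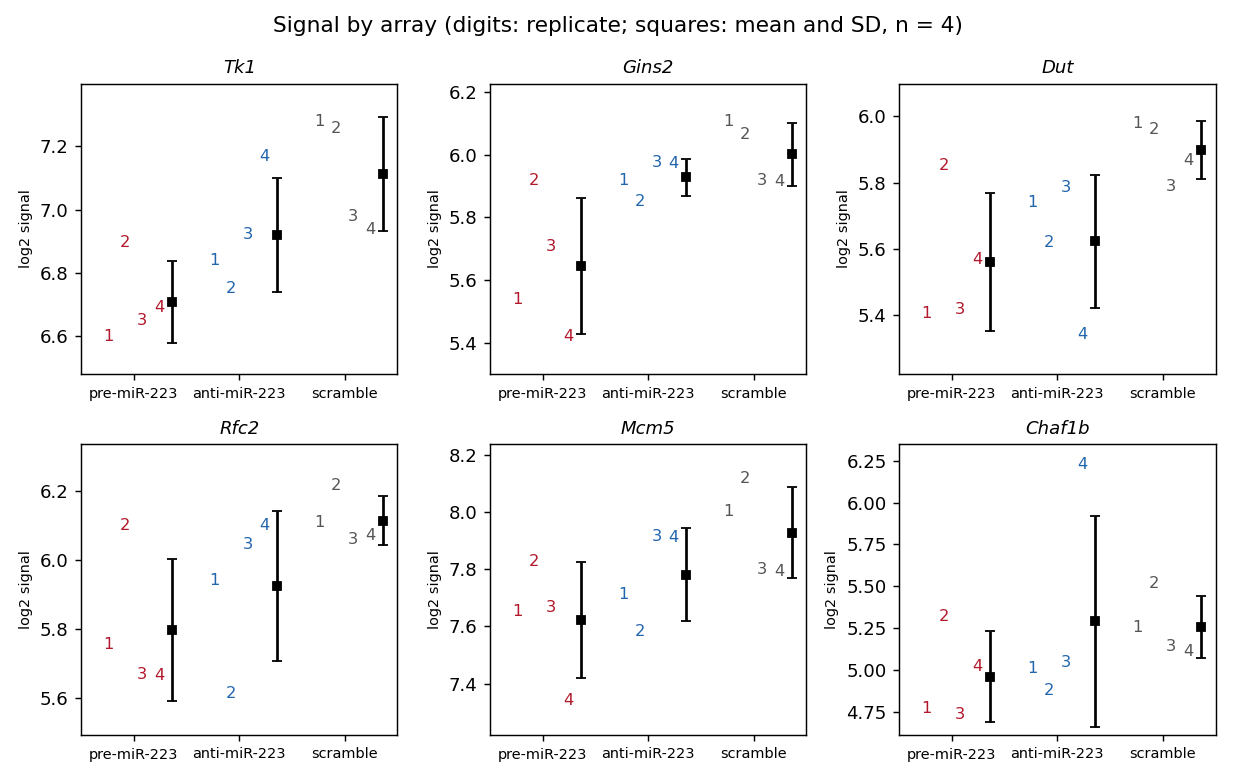
Log2 signal of Tk1, Gins2, Dut, Rfc2, Mcm5 and Chaf1b by array, with digits for the replicate and squares with bars for the mean and SD (n = 4), pre-miR-223 left, anti-miR-223 middle and scramble right; the axes do not start at zero. Tk1 has no overlap between pre-miR-223 (6.60 to 6.90) and scramble (6.94 to 7.28), pre-miR-223 replicate 2 is the highest of its group in all 6 panels, and Chaf1b has anti-miR-223 replicate 4 at 6.23.

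Cells given anti-miR-223 were set against scramble to ask whether blocking miR-223 goes with a change in the same genes. Differences were small: 31 of 40 genes were lower, with a median of -0.06, against 52.5% and -0.01 over all genes tested and 60.1% and -0.03 over the brighter genes. By limma 0 of 14611 genes (0.00%) were called, the smallest adjusted p being 0.988, and the ordinary linear model called 0 too. Limma gave 294 genes at an unadjusted p under 0.05 and the ordinary model 368. Dut alone of the 40 was among limma's 294 (1.35% of all genes were lower at that level), and the ordinary model had 0 of the 40. Its difference was -0.28 (95% CI -0.55 to -0.0047), unadjusted p = 0.0466. Its groups did not overlap, against 1.03% of all genes that were lower without overlap, but the highest anti-miR-223 array and the lowest scramble array both round to 5.79. Tk1 differed by -0.19 (-0.45 to 0.07), Rfc2 by -0.19 (-0.46 to 0.09), Pold1 by -0.19 (-0.45 to 0.07), Slbp by -0.14 (-0.34 to 0.06) and Mcm5 by -0.15 (-0.42 to 0.13). Gins2, the second lowest with pre-miR-223, differed by -0.07 (-0.31 to 0.17). Because the scramble arrays serve both comparisons, values that they share are not independent.

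The inhibitor comparison depended on anti-miR-223 replicate 4. Without that array 40 of 40 genes were lower and the median was -0.13, while all genes had 63.6% lower with a median of -0.05 and the brighter genes 80.6% with -0.11. The count at an unadjusted p under 0.05 became 4, against 4.89% of all genes lower at that level: Mcm2 at -0.37 (95% CI -0.66 to -0.08), Cdk2 at -0.37 (-0.67 to -0.07), Tk1 at -0.28 (-0.52 to -0.03) and Uhrf1 at -0.23 (-0.45 to -0.01). These values come from 3 arrays against 4. The groups then did not overlap for Rfc2, Rrm1, Tk1, Dut and Chaf1b, 5 of 40 genes, against 4.53% of all genes, and limma again called 0 genes, the smallest adjusted p being 0.194, with 978 genes at an unadjusted p under 0.05. Genes that ran higher with anti-miR-223 on 4 arrays ran lower on 3, such as Prim1 at 0.17 with the array and -0.12 without it, and Pole at 0.15 and -0.10. Other single arrays moved the median between -0.02, for anti-miR-223 replicate 2, and -0.10, for scramble replicate 3 or 4. Leaving out scramble replicate 2 or anti-miR-223 replicate 1 gave -0.03, and leaving out anti-miR-223 replicate 3 gave -0.09. By cyclic loess, with all arrays, it was -0.04 with 27 lower. Dut, with an interval that ended just below zero, was no longer at an unadjusted p under 0.05 without scramble replicate 1, 2 or 4, pre-miR-223 replicate 1, 3 or 4, or anti-miR-223 replicate 2 or 4, and differed by -0.18 without the last of these.

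**Figure D4:**
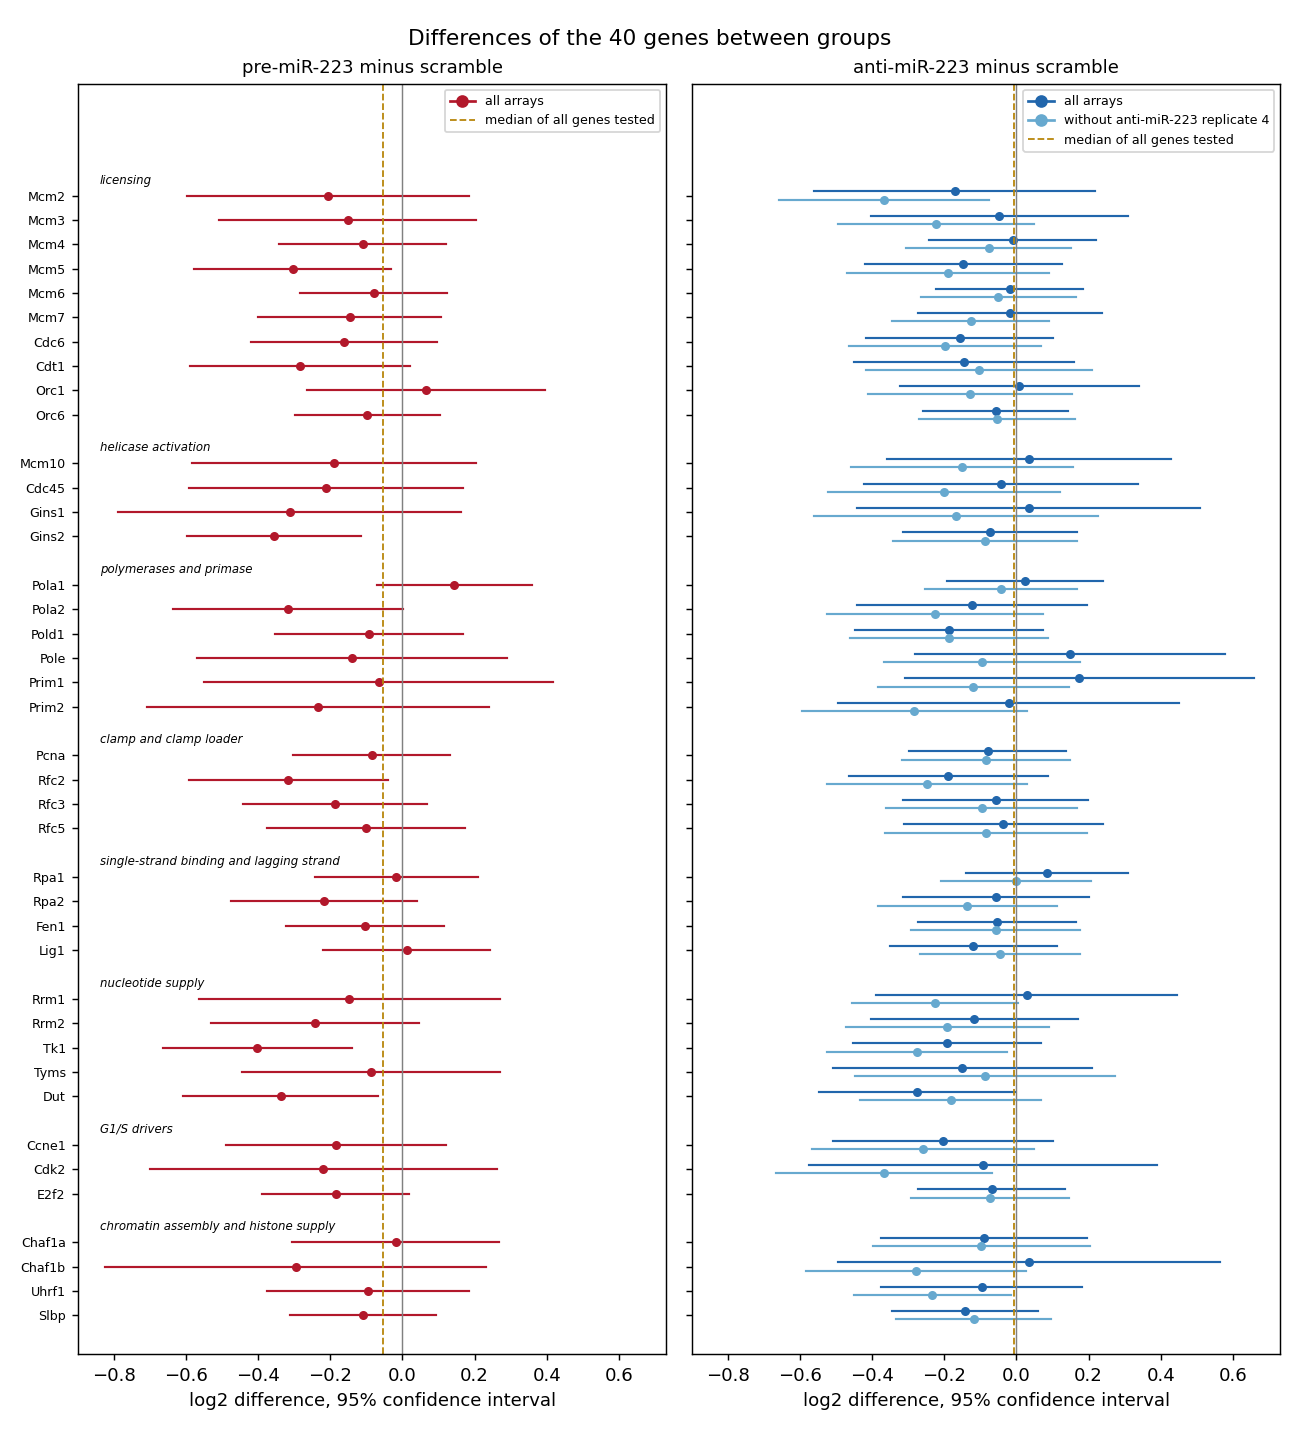
Log2 difference and 95% confidence interval from limma for each of the 40 genes, by role, for pre-miR-223 minus scramble (left) and anti-miR-223 minus scramble (right, all arrays in dark blue and without anti-miR-223 replicate 4 in light blue); dashed lines mark the median of all genes tested with all arrays. Most points lie left of zero with intervals that cross it, 37 of 40 on the left and 31 of 40 on the right, and 40 of 40 on the right without replicate 4.

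By role, the medians for anti-miR-223 against scramble with all arrays and without replicate 4 were -0.05 and -0.13 for licensing, -0.0044 and -0.16 for helicase activation, and 0.0005 and -0.15 for polymerases and primase. They were -0.07 and -0.09 for the clamp and its loader, -0.06 and -0.05 for single-strand binding and lagging strand, and -0.15 and -0.19 for nucleotide supply. They were -0.09 and -0.26 for the G1/S drivers and -0.09 and -0.18 for chromatin assembly. After cyclic loess, with all arrays, helicase activation was at 0.02 and polymerases and primase at 0.03. Leaving out replicate 4 moved the medians of helicase activation, polymerase and driver genes most, and those of clamp, lagging-strand and nucleotide supply genes least. E2f1 differed by -0.04 (95% CI -0.25 to 0.16) and Fbxw7 by 0.01 (-0.25 to 0.27), or by -0.08 and -0.10 without replicate 4.

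Pre-miR-223 was also set directly against anti-miR-223, the 2 oligonucleotides that act on miR-223 in opposite ways. The genes were lower with pre-miR-223 in 31 of 40 cases, with a median of -0.11, against 62.8% and -0.04 over all genes and 71.5% and -0.08 over the brighter ones. Without anti-miR-223 replicate 4 there were 24 of 40 lower with a median of -0.02, beside -0.0084 over all genes, of which 52.2% were lower. By limma 0 of 14611 genes (0.00%) were called, the smallest adjusted p being 0.946, with 528 at an unadjusted p under 0.05, and by the ordinary linear model 0, with 530. By the brightest clusters, the 1 replication gene among limma's 528 was Gins2, at -0.28 (95% CI -0.53 to -0.04) with an unadjusted p of 0.0247. Of all genes 2.57% were lower at that level. Without replicate 4 Gins2 was at -0.27 (-0.52 to -0.01), where 2.82% of all genes were lower at that level. It was no longer at that level without pre-miR-223 replicate 1 or 4 or anti-miR-223 replicate 3. The next smallest p-values belonged to Tk1 at -0.21 (-0.47 to 0.05), Gins1 at -0.35 (-0.82 to 0.13), Pole at -0.29 (-0.72 to 0.14) and Chaf1b at -0.33 (-0.86 to 0.20), and without replicate 4 these were -0.13, -0.14, -0.05 and -0.02. With all arrays 0 of the 40 genes had pre-miR-223 arrays all below the anti-miR-223 arrays, against 0.972% of all genes, and without replicate 4 again 0, against 2.53%. Pola1 was the only one of the 40 whose pre-miR-223 arrays then all lay above the anti-miR-223 arrays (2.31% of all genes did), at 0.19 (-0.02 to 0.40). E2f1 differed by -0.03 (-0.24 to 0.17) and Fbxw7 by 0.09 (-0.17 to 0.35). After cyclic loess, with all arrays, 23 of 40 genes were lower and the median was -0.03. All these values are of the brightest clusters. The dimmer clusters of Rrm2 and Rpa1 were higher with pre-miR-223 than with anti-miR-223, as given below.

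Rrm2, Rpa1, Fen1, Pole and Dut had a second, dimmer cluster, and it lay above the level required in 4 of the 5. In 3 of these 4, Rrm2, Rpa1 and Fen1, its difference from scramble with pre-miR-223 ran against that of the brighter one. The second cluster of Rrm2 was at 4.88, 3.51, 4.49 and 5.02 with pre-miR-223, at 3.75, 3.78, 3.71 and 1.67 with anti-miR-223, and at 2.99, 3.38, 4.13 and 3.74 with scramble. Its difference with pre-miR-223 was 0.92 (95% CI -0.06 to 1.89) against scramble. Against anti-miR-223 it was 1.245 (0.27 to 2.22), unadjusted p = 0.0159 and adjusted p = 0.933 by limma in a fit of every cluster. That fit was not repeated without anti-miR-223 replicate 4. By contrast, the brighter cluster, at 6.43, 6.71, 6.26 and 6.30 with pre-miR-223, at 6.56, 6.26, 6.61 and 6.78 with anti-miR-223, and at 6.53, 6.86, 6.58 and 6.71 with scramble, differed from scramble by -0.24. The second cluster of Rpa1 was at 3.86, 3.15, 3.82 and 3.99 with pre-miR-223, at 3.33, 3.12, 2.84 and 2.11 with anti-miR-223, and at 2.65, 2.60, 3.48 and 3.15 with scramble. It differed by 0.74 (0.15 to 1.32) from scramble, adjusted p = 0.891 by limma in a fit of every cluster. From anti-miR-223 it differed by 0.85 (0.27 to 1.44), unadjusted p = 0.0074 and adjusted p = 0.933 by limma in the same fit. For both genes pre-miR-223 replicates 1, 3 and 4 were the highest of the 12 arrays by the dimmer cluster, and replicate 2 lay among the scramble arrays. The brighter Rpa1 cluster was at 7.01, 6.96, 6.89 and 6.97 with pre-miR-223, at 6.98, 6.91, 7.02 and 7.31 with anti-miR-223, and at 6.82, 7.04, 7.03 and 7.0 with scramble, with overlapping groups. The second cluster of Fen1 was at 4.47, 4.27, 4.92 and 5.30 with pre-miR-223, at 4.92, 4.54, 4.11 and 3.85 with anti-miR-223, and at 4.03, 4.09, 4.79 and 4.42 with scramble, and it differed from scramble by 0.41 (-0.15 to 0.97). The brighter Fen1 cluster was at 4.54, 4.73, 4.75 and 4.60 with pre-miR-223, at 4.73, 4.61, 4.76 and 4.71 with anti-miR-223, and at 4.69, 4.99, 4.73 and 4.63 with scramble. In these 3 genes the dimmer cluster stood highest in pre-miR-223 replicate 4 and lowest in anti-miR-223 replicate 4. It lay below its own 12-array mean in all 3 genes on 6 arrays, pre-miR-223 replicate 2, anti-miR-223 replicates 3 and 4 and scramble replicates 1, 2 and 4. The second cluster of Pole was near the lower limit, at 2.58, 2.14, 2.61 and 2.60 with pre-miR-223, at 2.35, 2.48, 2.55 and 2.35 with anti-miR-223, and at 2.60, 2.30, 2.78 and 2.37 with scramble, and differed from scramble by -0.03. Pole's brighter cluster is described above, and the second cluster of Dut, below the level required, averaged 1.84 ± 0.21 with pre-miR-223, 1.77 ± 0.15 with anti-miR-223 and 1.82 ± 0.11 with scramble (SD, n = 4 each), with overlapping groups. Which transcripts the dimmer clusters measure was not tested.

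**Figure D5:**
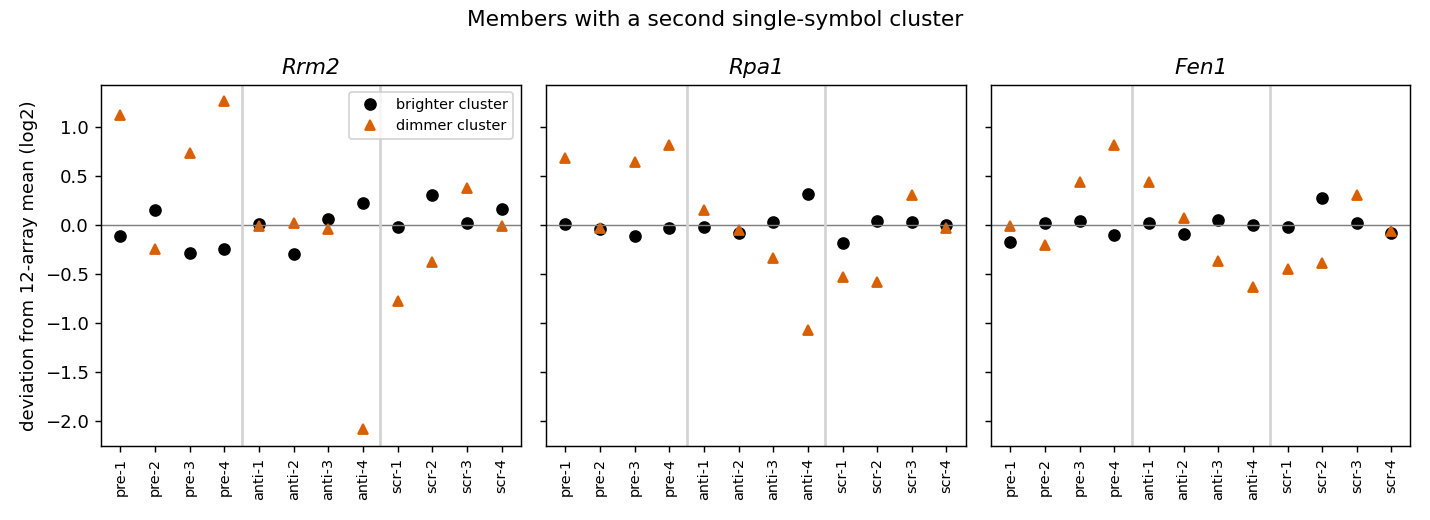
Deviation from the 12-array mean, in log2, of the brighter (circles) and dimmer (triangles) cluster of Rrm2, Rpa1 and Fen1, by array, with pre-miR-223 left, anti-miR-223 middle and scramble right. The dimmer cluster stands highest in pre-miR-223 replicate 4 and lowest in anti-miR-223 replicate 4 in all 3 genes (5.02 and 1.67 for Rrm2), and the brighter clusters vary less.

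Split by the promoter letters, the replication genes with and without an E2F word had medians close to each other. With pre-miR-223 against scramble, the 14 genes with a word had a median of -0.15 with 11 lower, the 20 measured genes without one had -0.17 with 20 lower, and the 6 without a window had -0.27 with 6 lower. Of the 5 genes at an unadjusted p under 0.05 by limma, Mcm5 (-0.30) has matches in its window. Tk1 (-0.40) and Dut (-0.34) have none in theirs, and Gins2 and Rfc2 have no window. Orc1, Pola1 and Lig1, the genes that were higher, each have a word in a window. Of the other genes printed above, Mcm6, with 3 matches, was at -0.08 and Cdk2, with 1, at -0.22. With anti-miR-223 against scramble the medians were -0.08 with a word, -0.07 without one and -0.02 with no window. Leaving out anti-miR-223 replicate 4 gave -0.13, -0.14 and -0.13. No difference between the sets was tested.

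The other genes of replication and of G1/S control had shares of lower values with pre-miR-223 to be read against 65.2% of all genes and 78.5% of the brighter ones. Of 48 further replication factors 46 were tested, and 39 were lower with pre-miR-223 (84.8%), with a median of -0.11, or 25 of 46 with -0.0064 after cyclic loess. The count at an unadjusted p under 0.05 was 4 of 46, all lower, against 3.85% of all genes. The 3 with the smallest p were Pold2, an accessory subunit of the lagging-strand polymerase, at -0.40 (95% CI -0.69 to -0.10), Chtf8, of an alternative clamp loader, at -0.31 (-0.56 to -0.07), and Pold4, the smallest subunit of that polymerase, at -0.56 (-1.01 to -0.11). Of 29 G1/S control genes 28 were tested, and 22 were lower (78.6%) with a median of -0.09, or 14 of 28 with 0.0018 after cyclic loess. Cdkn2d, an inhibitor of the cyclin D kinases, was at -0.37 (-0.72 to -0.01) and was the 1 gene of 28 at an unadjusted p under 0.05, against the same 3.85%. With anti-miR-223 the 46 factors had 29 lower and a median of -0.04, and the G1/S control genes 16 of 28 lower and -0.03, against 52.5% of all genes lower, and after cyclic loess these were 24 of 46 with -0.01 and 14 of 28 with 0.0018. Without replicate 4 these were 42 of 46 with -0.12 and 25 of 28 with -0.12. Over all genes 63.6% were then lower with a median of -0.05, and over the brighter genes 80.6% with -0.11. Pclaf, which binds Pcna, was the 1 factor of 46 at an unadjusted p under 0.05 with anti-miR-223 on all arrays (1.35% of all genes were lower at that level), at -0.27 (-0.49 to -0.05). None of these genes passed the test over all genes.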

How the data were processed

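Total RNA of 12 RAW 264.7 samples, 4 per group, was hybridised to Affymetrix whole-transcript arrays. The authors deposited 1 value per transcript cluster, on a scale taken here as log2. Software named, without versions, in the submitters' processing notes is Partek, RMA and Affymetrix Expression Console. The log base was taken as 2 from the range of the values (0.53 to 12.45). Array medians of the deposited values ranged from 2.21 to 2.31, and normalisation between arrays hides differences in total RNA. The genome build is not given in the sources used here.

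Of 41345 clusters, 23521 had 1 gene symbol in the platform annotation, 1814 had several and 16010 had none, and only the first kind named a gene. The brightest cluster stood for a gene, and 14611 genes with a mean above the 40th percentile of all clusters were tested. The deposited values were used with no further scaling. All 12 arrays were fitted in 1 model with 1 coefficient per group (lmFit and eBayes of limma 3.58.1, R 4.3.3), with Benjamini-Hochberg adjustment over all genes and a threshold of 0.05; it was tested on simulated data. Intervals are 95% intervals of that fit, and 4 arrays per group limit their precision. Alternatives were each array left out, other scalings, filters, cluster choices and variance models, array weights, a replicate block and fits of 2 groups; 2 were added after seeing the data, the comparison with genes above a mean of log2 5 and the fit of every cluster.

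Values in every array are printed for the 5 genes of smallest p per comparison, the smallest in each role group with pre-miR-223, the highest and lowest mean, and genes with several clusters. From the other lists up to 3 genes with the smallest p are named, and E2f1 and Fbxw7 always. The genes, lists and rules were chosen with earlier results of these data known.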

Additional observations from a re-analysis of the deposited data

Results flagged for a closer look

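Dixon's test was run on 138 groups of 4 arrays, those of the 40 genes, of their dimmer clusters above the level required and of E2f1 and Fbxw7. An array far from the other 3 was found in 3 groups, a smaller share than the about 5% that chance gives. Chaf1b, a subunit of the histone chaperone behind the fork, stood at 6.23 in anti-miR-223 replicate 4, against 4.88 to 5.05 in the other anti-miR-223 arrays, and the gap took 0.874 of the range. The second cluster of Rrm2 stood at 1.67 in the same array, against 3.71 to 3.78 in the other 3 (0.969 of the range). The second cluster of Pole stood at 2.14 in pre-miR-223 replicate 2, against 2.58 to 2.61 (0.929 of the range), near the lower limit of the test. What set these values apart was not tested.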

How the results depend on the processing

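Across 23 other settings per comparison, 12 of them with 1 array left out, limma or the ordinary linear model called 0 genes in every comparison, and the lowest adjusted p was 0.234 with pre-miR-223 against scramble, 0.194 with anti-miR-223 against scramble and 0.113 with pre-miR-223 against anti-miR-223. The median of the 40 genes stayed below zero in each setting and comparison. With pre-miR-223 against scramble the count of genes at an unadjusted p under 0.05, 711, ran from 314, without pre-miR-223 replicate 4, to 1510, without pre-miR-223 replicate 2, was 1371 without anti-miR-223 replicate 4, and was 1884 with array weights (8 of the 40), 1339 with only the arrays of both groups (6) and 1055 with no filter (7). With anti-miR-223 against scramble it was 623 with array weights, 523 with no filter and 161 with a filter at the 60th percentile, and with pre-miR-223 against anti-miR-223 it was 793, 826 and, with only the arrays of both groups, 338. These counts are out of 14611 genes, except for 22180 with no filter and 10097 with the filter at the 60th percentile. Counts under a changed filter therefore do not compare directly with the others. Replicate numbers did not pair the arrays (correlation of deviations -0.503 to 0.393, over 0.1 in 4 of 12 pairs). With the replicate number as a block limma called 0 genes in each comparison, with 547, 248 and 408 genes at an unadjusted p under 0.05, and the medians of the 40 genes were -0.16, -0.06 and -0.11.

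Of 60 differences of the 20 genes named by rule, 25 turned sign in some setting, and the cause was not tested. With pre-miR-223 against scramble, quantile normalisation gave Pcna 0.016 and Rpa1 0.051, cyclic loess gave Pold1 0.0080, Slbp 0.0081, Pcna 0.032, Rpa1 0.097 and E2f1 0.020 and the mean of a gene's clusters gave Fen1 0.15, Rpa1 0.36 and Rrm2 0.34. With anti-miR-223 against scramble, centring each array gave Orc1 -0.0033 and Fbxw7 -0.00060, quantile normalisation gave Orc1 -0.029, the mean of a gene's clusters gave Rpa1 -0.016 and array weights gave Gins1 -0.029, Pole -0.0049, Chaf1b -0.16, Orc1 -0.048 and Fbxw7 -0.045. With pre-miR-223 against anti-miR-223, quantile normalisation gave Pcna 0.039 and E2f1 0.017, cyclic loess gave Dut 0.013, Pcna 0.066, Fen1 0.021 and E2f1 0.039, the mean of a gene's clusters gave Dut 0.0015, Fen1 0.17, Rpa1 0.38 and Rrm2 0.56 and array weights gave Slbp -0.022. With single arrays left out, pre-miR-223 against scramble gave Rpa1 from -0.069 to 0.0066. With single arrays left out, anti-miR-223 against scramble gave Chaf1b from -0.28 to 0.17, E2f1 from -0.085 to 0.017, Fbxw7 from -0.10 to 0.075, Fen1 from -0.098 to 0.022, Gins1 from -0.17 to 0.19, Orc1 from -0.13 to 0.16, Pole from -0.095 to 0.28, Rpa1 from -0.0011 to 0.13 and Rpa2 from -0.14 to 0.027. With single arrays left out, pre-miR-223 against anti-miR-223 gave E2f1 from -0.062 to 0.0076, Orc1 from -0.092 to 0.19, Pcna from -0.067 to 0.033, Pold1 from -0.012 to 0.16 and Slbp from -0.0012 to 0.068.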

Other observations

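Of the 20 listed transcripts of G2 and mitosis 19 were tested with pre-miR-223, and 15 (78.9%) were lower than with scramble, beside 65.2% of all genes and 78.5% of those with a mean log2 above 5, with a median of -0.15 and 0 at an unadjusted p under 0.05 by limma. After cyclic loess 12 of 19 were lower with a median of -0.03. With anti-miR-223 12 of 19 were lower, beside 52.5% of all genes, with a median of -0.0095 (7 of 19 and 0.02 after cyclic loess). Without anti-miR-223 replicate 4 16 of 19 were lower, with a median of -0.10. Over all genes 63.6% were then lower, and over the brighter genes 80.6% with a median of -0.11. With pre-miR-223 against anti-miR-223 15 of 19 were lower with a median of -0.13 (11 of 19 and -0.05 after cyclic loess). Beside this, 62.8% of all genes were lower, and 71.5% of the brighter ones with a median of -0.08. By limma 1 of 19 was at an unadjusted p under 0.05, against 528 of all 14611 genes. Without that replicate 9 of 19 were lower with a median of 0.02, beside 52.2% of all genes.

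With pre-miR-223 against anti-miR-223, 32 of the 46 further replication factors were lower, beside 62.8% of all genes. By limma 5 of the 46 were at an unadjusted p under 0.05, 4 lower and 1 higher, against 528 of all 14611 genes. Without anti-miR-223 replicate 4, 16 of 46 were lower, beside 52.2%, and 3 were at that level, against 714 genes. Gmnn, which encodes geminin, the inhibitor of Cdt1, was among the factors higher with pre-miR-223, by 0.39 (95% CI 0.13 to 0.64), or by 0.30 without that replicate. Cdca7, which helps to recruit a chromatin remodeller to DNA, differed the other way, by -0.34 or by -0.26 without that replicate. Rrm2b, the damage-responsive form of the small ribonucleotide reductase subunit, differed by -0.51 or by -0.31. None of these passed the test over all genes.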
